A study of Mus musculus with 4 samples.

Results

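The genes of the cell cycle and of mitosis were followed in parietal peritoneum, the membrane that lines the abdominal wall, from mice of the C57BL/6J strain. The members were 50 listed genes that encode G1 cyclins, DNA replication factors and the machinery of mitosis. Of these, 49 had a probe set with a single gene symbol among 18193 named genes, and Ccnb1 is not reported here. Where a member had several probe sets, the brightest by mean log2 signal stood for it, and a gene's Present call below is that of this probe set. By these probe sets, 34 of the 49 members were called Present by the authors on all 4 arrays, 12 on some, and Tyms, Bub1b and Ndc80 on none. Dimmer probe sets had a Present call on 1 array each for Tyms (11.2, transgenic chlorhexidine) and Bub1b (14.6, wild-type chlorhexidine).

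Each of 4 groups had 1 Affymetrix array. The first group was SAP-BNP-Tg mice, which carry brain natriuretic peptide (BNP) under the serum amyloid P promoter, given chlorhexidine gluconate, an antiseptic used to injure the peritoneum. The second was the same genotype given the control injection labelled ethanol/PBS, called vehicle here. The third was wild-type mice given chlorhexidine, and the fourth was wild-type mice given vehicle. Chlorhexidine was injected into the peritoneal cavity as a 0.1% solution in 15% ethanol and 85% PBS, at 0.01 mL per gram of body weight and 3 injections a week over 21 days. The labels give no schedule or ethanol content for the vehicle, no age or sex, and no number of mice behind an array. The serum amyloid P promoter is active mainly in liver, from which BNP circulates. With 1 array in each group no difference between groups has a replicate error, and the number of arrays limits the precision of every value.

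Dividing cells pass through G1, in which D-type and E-type cyclins activate kinases that release E2F factors from the retinoblastoma proteins. They copy their DNA in S phase with the MCM helicase, which is loaded at origins by Cdc6 and switched on with Cdc45, while geminin (Gmnn) prevents a second loading. They then enter mitosis under Cdk1 with its A-type and B-type cyclins, attach chromosomes at kinetochores, pass a checkpoint and divide at the central spindle. Transcripts of replication genes are known to peak near the start of S phase, and those of mitosis genes in G2 and M. In adult peritoneum and muscle most cells rest, and in bulk tissue a higher signal from more dividing cells and one from more RNA per cell cannot be told apart.

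The transcription of these genes is known to use short promoter elements. E2F sites are typical of replication genes. CCAAT boxes, which bind NF-Y, and the cell cycle homology region (CHR), which binds the DREAM and MuvB complexes, are typical of mitosis genes. RefSeq promoters of assembly GRCm38.p6, from 250 bases before to 50 bases after the annotated gene start, were found for 41 of the 50 members. Those shown are of the brighter members of each class, Pcna and Mcm7 for replication and Top2a and Mki67 for mitosis, and of Cdk1 and Anln. The last pair was chosen after their values were seen, because both were higher with chlorhexidine in both genotypes and hold the CHR. Capitals mark matches on either strand to CCAAT, to the CHR letters TTTGAA and to the E2F letters TTTNGCGC or TTTNCCGC, and adjoining or overlapping matches run together.
Pcna, chr2:132253131-132253430, minus strand: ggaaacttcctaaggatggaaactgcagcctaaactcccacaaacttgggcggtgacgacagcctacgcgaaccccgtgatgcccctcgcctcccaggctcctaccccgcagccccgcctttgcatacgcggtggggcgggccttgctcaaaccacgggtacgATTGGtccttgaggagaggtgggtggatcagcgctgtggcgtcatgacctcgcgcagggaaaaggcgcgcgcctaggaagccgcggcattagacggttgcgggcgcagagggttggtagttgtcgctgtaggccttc
Mcm7, chr5:138171834-138172133, minus strand: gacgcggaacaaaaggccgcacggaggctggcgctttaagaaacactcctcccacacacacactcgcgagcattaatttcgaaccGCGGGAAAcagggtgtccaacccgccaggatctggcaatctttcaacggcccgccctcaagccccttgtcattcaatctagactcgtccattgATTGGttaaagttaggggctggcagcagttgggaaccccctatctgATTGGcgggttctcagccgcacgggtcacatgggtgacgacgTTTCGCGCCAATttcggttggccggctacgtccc
Top2a, chr11:99024140-99024439, minus strand: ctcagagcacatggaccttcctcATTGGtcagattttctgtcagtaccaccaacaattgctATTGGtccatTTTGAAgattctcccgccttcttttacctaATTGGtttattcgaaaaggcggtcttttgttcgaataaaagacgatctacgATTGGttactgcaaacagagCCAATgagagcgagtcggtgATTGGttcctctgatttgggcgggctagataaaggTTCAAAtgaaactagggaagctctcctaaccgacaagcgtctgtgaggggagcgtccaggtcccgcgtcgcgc
Mki67, chr7:135716330-135716629, minus strand: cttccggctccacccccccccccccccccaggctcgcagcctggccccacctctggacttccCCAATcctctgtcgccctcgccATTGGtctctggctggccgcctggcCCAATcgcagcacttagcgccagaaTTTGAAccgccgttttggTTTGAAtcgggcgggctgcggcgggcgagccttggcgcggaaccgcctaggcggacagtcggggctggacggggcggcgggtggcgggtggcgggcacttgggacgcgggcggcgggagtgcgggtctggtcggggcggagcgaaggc
Cdk1, chr10:69352863-69353162, minus strand: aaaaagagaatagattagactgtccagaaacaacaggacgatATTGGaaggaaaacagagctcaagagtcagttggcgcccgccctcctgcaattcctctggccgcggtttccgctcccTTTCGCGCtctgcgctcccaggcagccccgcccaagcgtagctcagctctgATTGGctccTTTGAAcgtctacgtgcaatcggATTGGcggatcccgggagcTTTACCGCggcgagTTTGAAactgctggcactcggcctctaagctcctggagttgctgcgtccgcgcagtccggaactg
Anln, chr9:22389157-22389456, minus strand: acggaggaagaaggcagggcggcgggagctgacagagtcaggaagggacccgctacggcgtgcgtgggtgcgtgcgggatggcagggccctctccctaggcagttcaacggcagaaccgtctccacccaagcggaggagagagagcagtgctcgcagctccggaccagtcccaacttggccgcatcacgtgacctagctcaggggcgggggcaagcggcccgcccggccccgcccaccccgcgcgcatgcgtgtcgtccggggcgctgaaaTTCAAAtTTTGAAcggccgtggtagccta

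The CHR letters divided the classes. They stood in 21 of 28 promoters of mitosis members and in 2 of 12 promoters of replication members, Cdc45 and Mcm2, against 18.1% of 27025 promoters in the table. Matches in mitosis members lay close to the gene start. Of 27 matches, 20 began within 60 bases of it, in 19 genes, where 5.46% of all promoters held a match in that window. The window was chosen after the positions were seen. CCAAT stood in 21 of the 28 mitosis promoters and in 10 of the 12 replication promoters, against 37.9% of all. Either form of the E2F letters stood in 5 of the 12 replication promoters (Mcm3, Mcm5, Mcm6, Mcm7 and Cdc6) and in 2 of the 28 mitosis promoters (Cdk1 and Racgap1), against 3.57% of all. A match in these letters is a description of the window and not evidence of a bound site.

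**Figure D1:**
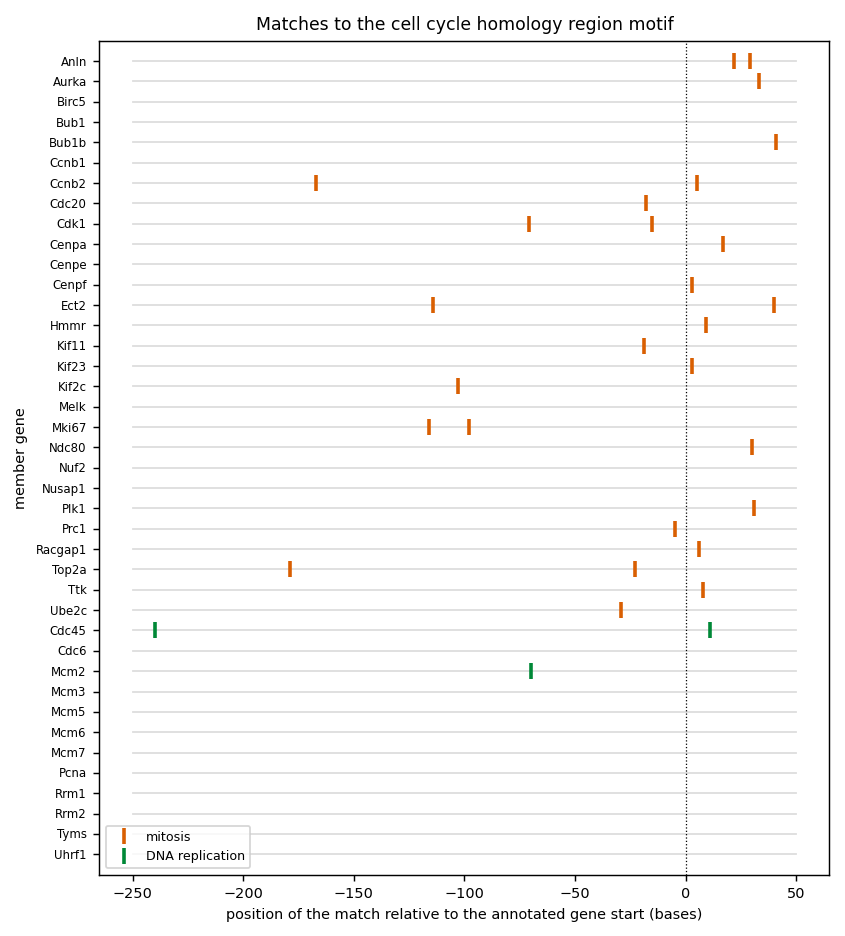
Position of each match to the CHR motif (bars, either strand) in the promoters of 28 mitosis members and 12 replication members, in bases from the annotated gene start (dotted line), with grey lines for the window of 250 bases before to 50 after. Mitosis members hold 27 matches, 20 of them within 60 bases of the start, and replication members hold 3.

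Signals below are the deposited signals after each array was multiplied to a common trimmed mean, in arbitrary units. A gene was called higher or lower by size alone when it differed at least 2-fold, a log2 difference of at least 1, had a Present call where it was brighter, and lay there above the dimmest 25% of Present probe sets, a minimum signal of 34.5 to 35.4. Many mitosis genes were dim, and 16 of 31 in transgenic mice and 19 of 31 in wild type were bright enough on the brighter array to be called, against 12 of 14 replication genes in either genotype. A fold against an array without a Present call is written as "at least", and log2 differences are as measured. Control probe sets set the wild-type vehicle array apart. Its scaled mean 18S rRNA signal was 1052, against 81.5 to 108 on the other 3 arrays. Its 3-prime to middle beta-actin ratio was 5.81, against 2.23 to 2.84, while its 3-prime to 5-prime ratio was 1.22, against 1.07 to 1.15. The member counts, the median of all members, the gap between classes and the single calls are therefore also given with the vehicle arrays exchanged, while other results that rest on it are given with it alone.

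Mitosis genes as a class had higher signal with chlorhexidine in both genotypes, by median, and replication genes less so. Of the 49 members, 9 were called higher with chlorhexidine in transgenic mice, where 3.81% of 12754 genes Present on at least 1 array were, and 0 were called lower, where 1.40% of genes were. In wild type 11 of the 49 were called higher, against 8.22% of genes, and 0 lower, against 4.93%. Over the 46 members Present on at least 1 array the median log2 difference was 0.56 in transgenic mice, with 38 above 0, and 0.67 in wild type, with 40 above 0, where the median of all genes was 0.00 in both. Against the other genotype's vehicle array, 3 members were called higher in transgenic mice (5.17% of genes), and 19 in wild type (7.23% of genes). The median relative to all genes was 0.23 for transgenic chlorhexidine tissue against the wild-type vehicle array, and 1.10 for wild-type chlorhexidine tissue against the transgenic vehicle array.

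**Figure D2:**
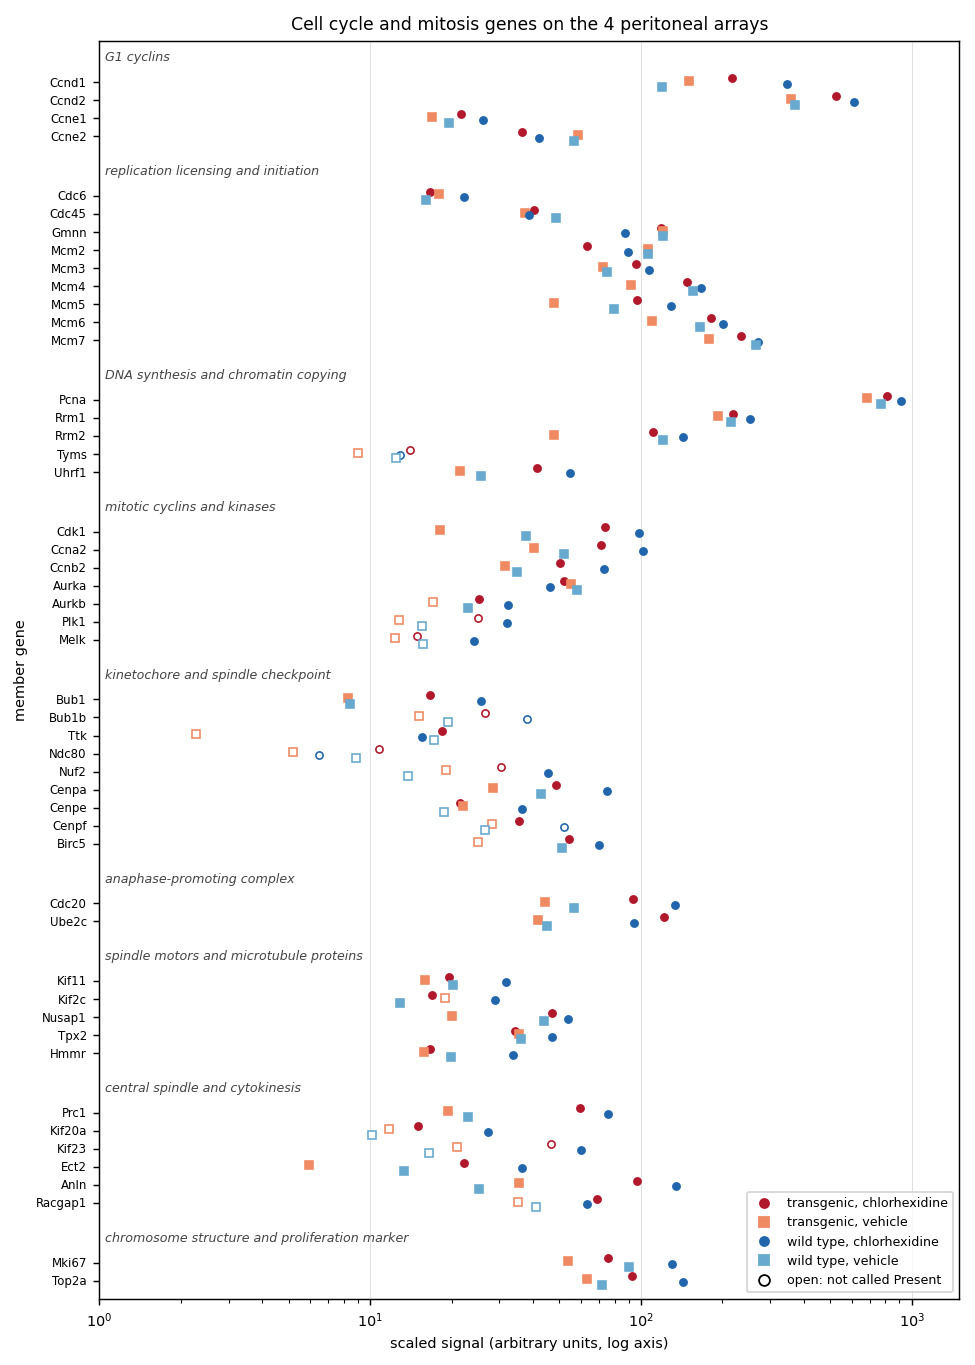
Scaled signal of the 49 measured members on each array (log axis, arbitrary units), grouped by role, with circles for chlorhexidine, squares for vehicle, red shades for transgenic and blue shades for wild type, and open symbols where the authors' call was not Present. Circles lie right of the squares of their genotype for most mitosis genes, such as Prc1 (59.5 against 19.4 in transgenic mice, 75.8 against 23.1 in wild type), and close to them for Pcna and Rrm1. Levels of different genes come from different probe sets and are not comparable.

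By the probe sets that stood for them, the 5 members called higher in both genotypes were all mitosis genes, where 3.03% of all genes were called in both. The G1 cyclin Ccnd1 was called in wild type alone by that choice, but met the rule in both genotypes by its other probe sets. Cdk1, the kinase that drives entry into mitosis, had a signal of 73.8 with chlorhexidine and 18.2 with vehicle in transgenic mice, and of 97.9 with chlorhexidine and 37.5 with vehicle in wild type. Both chlorhexidine arrays lay above both vehicle arrays, by 4.06-fold in transgenic mice and 2.61-fold in wild type. Anln, anillin of the cleavage furrow, had 96.7 with chlorhexidine and 35.5 with vehicle in transgenic mice, and 134 with chlorhexidine and 25.2 with vehicle in wild type. It was 2.72-fold higher in transgenic mice and 5.34-fold in wild type, where it had the highest fold of the members. Prc1, which bundles the microtubules of the central spindle, was 3.07-fold higher in transgenic mice and 3.29-fold in wild type. The other two serve the anaphase-promoting complex, the ubiquitin ligase that ends mitosis. Its activator Cdc20 had 93.6 with chlorhexidine and 44.4 with vehicle in transgenic mice, and 133 with chlorhexidine and 56.8 with vehicle in wild type. Its ubiquitin-conjugating enzyme Ube2c had 122 with chlorhexidine and 41.6 with vehicle in transgenic mice, and 94.2 with chlorhexidine and 45.1 with vehicle in wild type. All 4 of these genes other than Cdk1 also had chlorhexidine arrays above both vehicle arrays. A second Cdc20 probe set called Present on all 4 arrays gave smaller log2 differences, 0.67 in transgenic mice and 0.38 in wild type. Another Prc1 probe set, not Present on either vehicle array, had 35.4 with chlorhexidine and 20.6 with vehicle in transgenic mice, and 63.2 with chlorhexidine and 13.2 with vehicle in wild type. Without probe sets ending in _x_at or _s_at, Prc1 lost its call in transgenic mice and Cdc20 its calls in both genotypes. Ube2c lost its wild-type call under quantile normalization, median centring and loess. Averaged with a dim probe set that was Present on no array, Anln differed by 0.12 in transgenic mice and 0.82 in wild type.

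Another 10 members were called in 1 genotype. In transgenic mice these were Birc5 (survivin, of the chromosomal passenger complex), Nusap1 (a spindle microtubule protein), Rrm2 (the regulated subunit of ribonucleotide reductase) and Mcm5 (an MCM helicase subunit). Rrm2 had 111 with chlorhexidine and 47.8 with vehicle in transgenic mice, and 143 with chlorhexidine and 120.1 with vehicle in wild type. Nusap1 had 46.8 with chlorhexidine and 20.1 with vehicle in transgenic mice, and 53.5 with chlorhexidine and 43.7 with vehicle in wild type. In these 2 genes, and in Birc5, the transgenic vehicle array was the low one and the other 3 lay closer together. A second Rrm2 probe set, also Present on all 4 arrays, did not show this order, with 44.0 with chlorhexidine and 33.2 with vehicle in transgenic mice, and 80.8 with chlorhexidine and 45.3 with vehicle in wild type. There the wild-type chlorhexidine array was the high one, and the Rrm2 call in transgenic mice was lost. Birc5 was at least 2.16-fold higher in transgenic mice, and Mcm5 2.01-fold. Set against the wild-type vehicle array, transgenic chlorhexidine tissue had an Rrm2 log2 difference of -0.11, and the calls of Cdk1, Cdc20, Birc5, Nusap1, Rrm2 and Mcm5 were lost. Ube2c, Prc1 and Anln stayed called.

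In wild type the 6 were Ccnd1 (cyclin D1), Ccnb2 (cyclin B2), Uhrf1 (which carries DNA methylation through replication), and the mitosis genes Ect2, Kif23 and Nuf2. Ect2, the exchange factor that activates RhoA at the cleavage furrow, had 22.2 with chlorhexidine and 5.97 with vehicle in transgenic mice, and 36.4 with chlorhexidine and 13.3 with vehicle in wild type. Its fold was larger in transgenic mice (3.73) than in wild type (2.73), and it went uncalled in transgenic mice because both arrays were dim. Kif23, a motor of the central spindle, was at least 3.64-fold higher in wild type, and its 46.6 and 20.9 with chlorhexidine and vehicle in transgenic mice were not called Present. Nuf2, of the outer kinetochore, was at least 3.27-fold higher in wild type. Ccnb2 had log2 differences of 0.67 in transgenic mice and 1.07 in wild type, and Uhrf1 had 0.95 and 1.10. All 11 calls in wild type were also made against the transgenic vehicle array, with Mcm5, Rrm2, Ccna2, Cenpa, Birc5, Nusap1, Mki67 and Top2a in addition.

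**Figure D3:**
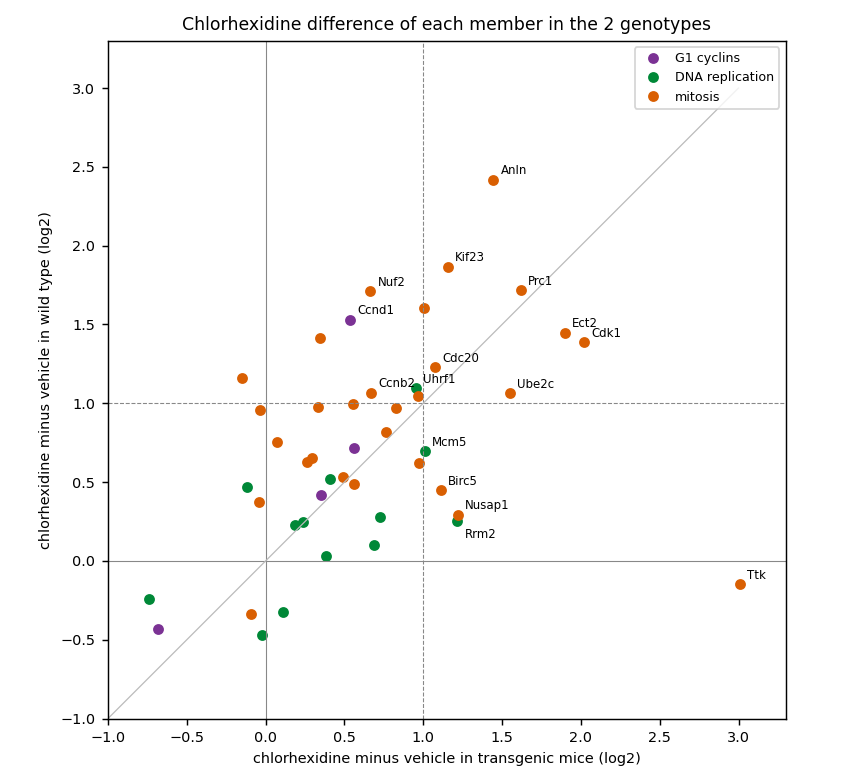
Chlorhexidine minus vehicle in transgenic mice (x axis) and in wild type (y axis) for the 46 members Present on at least 1 array, in log2 signal, coloured by class, with dashed lines at 2-fold and a grey line where both genotypes are equal. Mitosis genes fill the upper right, with Anln, Prc1, Cdk1, Cdc20 and Ube2c past 2-fold on both axes, replication genes lie nearer to 0, and Ttk lies far right on signals near the limit of detection.

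Among mitotic cyclins and kinases, 6 of 7 measured genes were above 0 in both genotypes. Ccna2, cyclin A2, had 71.2 with chlorhexidine and 40.1 with vehicle in transgenic mice, and 102 with chlorhexidine and 52.0 with vehicle in wild type, log2 differences of 0.83 and 0.97. Its second probe set differed by 0.76 in transgenic mice, and had 72.1 with chlorhexidine and 25.5 with vehicle in wild type. Plk1, polo-like kinase 1, was called Present on the wild-type chlorhexidine array only, at least 2.06-fold above the vehicle array. Aurkb, the kinase of the chromosomal passenger complex, differed by 0.56 in transgenic mice and 0.49 in wild type. Melk, a kinase of dividing cells, differed by 0.26 and 0.63 and was dim. The exception was Aurka, the centrosome kinase, with 51.8 with chlorhexidine and 55.4 with vehicle in transgenic mice, and 46.1 with chlorhexidine and 58.2 with vehicle in wild type. Its vehicle arrays lay above its chlorhexidine arrays.

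Kinetochore and checkpoint genes were mostly dim. Bub1, a checkpoint kinase, had 16.6 with chlorhexidine and 8.25 with vehicle in transgenic mice, and 25.6 with chlorhexidine and 8.43 with vehicle in wild type. It was Present on all 4 arrays and 2.01-fold and 3.04-fold higher, but below the signal minimum of the size rule. Cenpa, the histone of centromeres, had log2 differences of 0.76 in transgenic mice and 0.82 in wild type. The kinetochore motor Cenpe differed by -0.03 in transgenic mice and 0.96 in wild type, and the kinetochore protein Cenpf by 0.33 and 0.98, on wild-type arrays that were both not called Present. Ttk, the checkpoint kinase Mps1, had 18.4 with chlorhexidine and 2.28 with vehicle in transgenic mice, and 15.6 with chlorhexidine and 17.2 with vehicle in wild type. Only its transgenic vehicle signal was low, and neither vehicle array was called Present. The main probe sets of Bub1b, a checkpoint kinase, and Ndc80, of the outer kinetochore, were Present on no array.

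Genes of the spindle and of cell division differed from each other. All 6 measured genes of the central spindle and cytokinesis were above 0 in both genotypes, with differences from 0.35 to 1.90 in transgenic mice and from 0.62 to 2.42 in wild type. Kif20a, a kinesin of cytokinesis, was at least 1.27-fold higher in transgenic mice and 2.67-fold in wild type, and Racgap1, the GTPase activator that pairs with Kif23, at least 1.96-fold in transgenic mice and 1.54-fold in wild type. Among 5 genes of spindle motors and microtubule proteins, 3 were above 0 in transgenic mice and 5 in wild type. Hmmr, a spindle protein and hyaluronan receptor, had 16.6 with chlorhexidine and 15.8 with vehicle in transgenic mice, and 33.6 with chlorhexidine and 19.9 with vehicle in wild type. Another Hmmr probe set, Present on neither vehicle array, had 21.5 with chlorhexidine and 11.8 with vehicle in transgenic mice. In wild type that probe set had 24.6 with chlorhexidine and 9.83 with vehicle. Kif11, the motor that separates spindle poles, differed by 0.30 in transgenic mice and 0.65 in wild type. Tpx2, which builds spindle microtubules with Aurka, differed by -0.04 and 0.37. The proliferation marker Mki67 had 75.4 with chlorhexidine and 53.7 with vehicle in transgenic mice, and 131 with chlorhexidine and 90.4 with vehicle in wild type. Top2a, the topoisomerase that untangles chromosomes, had 92.9 with chlorhexidine and 63.2 with vehicle in transgenic mice, and 143 with chlorhexidine and 71.8 with vehicle in wild type. Both of these widely used markers were below 2-fold against their own vehicle arrays, at log2 differences of 0.49 and 0.53 for Mki67 and 0.55 and 0.99 for Top2a.

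Replication genes differed less. The median of the 13 detected ones was 0.38 in transgenic mice and 0.25 in wild type, against 0.76 and 0.98 for the 29 detected mitosis genes. By the size rule 2 of 14 replication genes were higher in transgenic mice and 1 in wild type, against 7 and 9 of 31 mitosis genes and against 3.81% and 8.22% of all genes. For replication genes in wild type that is close to the share of all genes. Pcna, the clamp of the replicative polymerases, had 808 with chlorhexidine and 685 with vehicle in transgenic mice, and 912 with chlorhexidine and 769 with vehicle in wild type, 1.18-fold and 1.19-fold. Rrm1, the constant subunit of ribonucleotide reductase, was 1.14-fold and 1.17-fold higher. Of the MCM helicase subunits, Mcm3 differed by 0.41 in transgenic mice and 0.52 in wild type, Mcm4 by 0.69 and 0.10, Mcm6 by 0.72 and 0.28, and Mcm7 by 0.38 and 0.03. Mcm2 went the other way, with 63.4 with chlorhexidine and 105.8 with vehicle in transgenic mice, and 89.9 with chlorhexidine and 106 with vehicle in wild type. A second Mcm2 probe set gave log2 differences of -0.16 in transgenic mice and 0.41 in wild type. Other MCM probe sets Present on all 4 arrays lay on both sides of the values above. For Mcm6 one gave 1.07 in transgenic mice and 0.80 in wild type. For Mcm3 one gave 0.27 and 0.37, and for Mcm4 one gave 0.18 and -0.01. Those for Mcm7 ran from -0.02 to 0.53 in transgenic mice and from -0.45 to 0.12 in wild type. For Mcm5 one had 33.9 with chlorhexidine and 18.1 with vehicle in transgenic mice, and 41.4 and 20.7 in wild type. The main Mcm5 probe set differed by 0.69 in wild type. Gmnn differed by -0.03 and -0.47, Cdc6 by -0.12 and 0.47, and Cdc45 by 0.11 and -0.33. The gap between the mitosis and the replication median was 0.38 in transgenic mice and 0.73 in wild type, and 0.08 and 0.29 after a pseudocount of 32 was added to every signal. With the vehicle arrays exchanged it was 0.41 and 0.67, and with the probe sets of each gene averaged 0.21 and 0.58. Genes are not replicates of a condition, so the gap has no test.

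**Figure D4:**
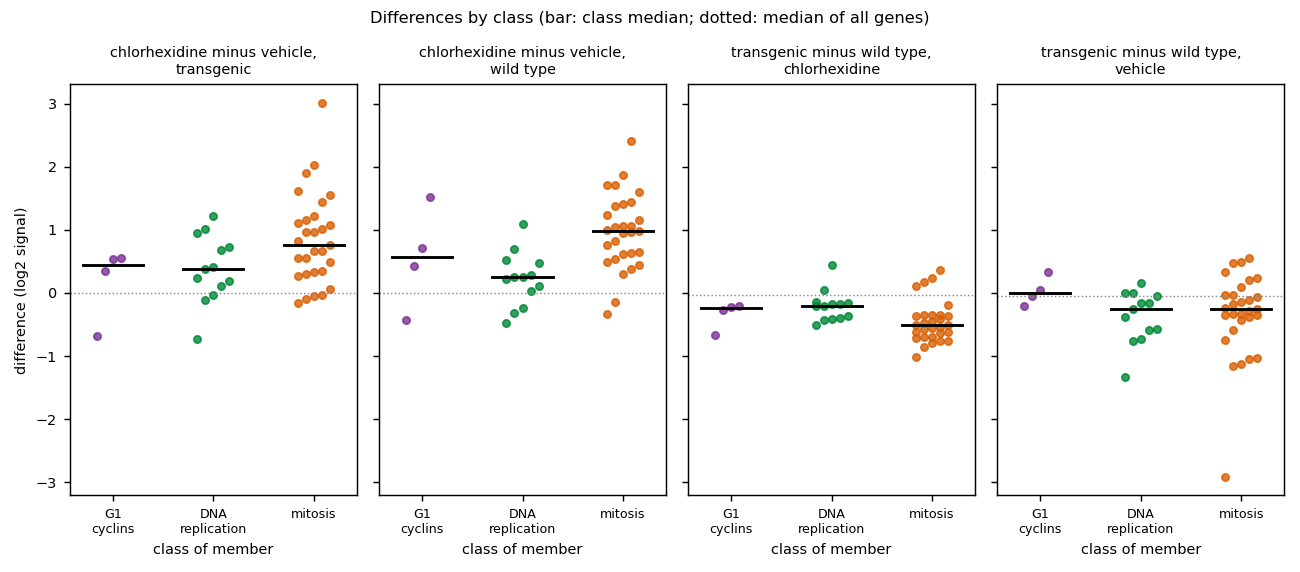
Log2 differences of the 46 members Present on at least 1 array, by class, in each comparison (points: genes; bars: class medians; dotted lines: median of all genes). With chlorhexidine the mitosis medians of 0.76 in transgenic mice and 0.98 in wild type lie above the replication medians of 0.38 and 0.25, and between the chlorhexidine arrays most members lie below 0.

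Of the 4 G1 cyclins, 3 were higher in both genotypes and Ccne2 was lower in both. Ccnd1 had 218 with chlorhexidine and 150.4 with vehicle in transgenic mice, and 345 with chlorhexidine and 119.6 with vehicle in wild type. A second probe set, Present on all 4 arrays, gave log2 differences of 1.10 in transgenic mice and 1.87 in wild type. A further one, Present on neither vehicle array, gave 1.82 and 2.44. By either of these, Ccnd1 met the size rule in both genotypes. Ccnd2, cyclin D2, had 526 with chlorhexidine and 357 with vehicle in transgenic mice, and 610.3 with chlorhexidine and 371 with vehicle in wild type, 1.47-fold and 1.65-fold. Ccne1, cyclin E1, differed by 0.35 in transgenic mice and 0.42 in wild type. Ccne2, cyclin E2, was lower in both genotypes, with 36.4 with chlorhexidine and 58.5 with vehicle in transgenic mice, and 42.0 with chlorhexidine and 56.8 with vehicle in wild type.

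The authors' Present calls differed in 1 direction. In transgenic mice 42 of 49 members were Present with chlorhexidine and 35 with vehicle, and in wild type 45 and 37. In transgenic mice 7 members were Present with chlorhexidine and not with vehicle, and in wild type 8, while 0 were Present with vehicle alone in either. All of these were mitosis genes, and Ttk, Kif20a and Racgap1 were among them in both genotypes. A second Racgap1 probe set was Present on all 4 arrays. With vehicle all 4 G1 and 13 of 14 replication members were already Present, so outside the mitosis class only Tyms could gain a call. Of the 31 mitosis members, 18 were Present with vehicle in transgenic mice and 20 in wild type. Over all 18193 genes, 3.70% gained a Present call with chlorhexidine and 2.94% lost it in transgenic mice, and 5.39% gained and 2.97% lost it in wild type.

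Probe sets of the same gene allowed a check of single values. The 49 members had 115 probe sets, of which 54 were Present on all 4 arrays, and 13 members had several of these. Their differences shared a sign in 11 of 13 members in transgenic mice and in 10 of 13 in wild type. The exceptions, Mcm7 and Rrm1 in transgenic mice and Mcm2, Mcm4 and Mcm7 in wild type, were all replication genes. The SD between probe sets of a member was 0.29 on the log2 scale in transgenic mice and 0.39 in wild type, so differences of that size between members or genotypes lie within the disagreement of probe sets.

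Across the 46 members, the chlorhexidine differences of the genotypes, which share no array, had a Pearson correlation of 0.41, where all 12754 genes had 0.55. Genes on the same arrays share scaling and are not independent, and the value is a description. The difference was larger in wild type in 30 members and larger in transgenic mice in 16, against 6226 and 6528 of all genes, and the median of transgenic minus wild type was -0.11. Among mitosis genes 20 of 29 were larger in wild type, and among replication genes 6 of 13. The interaction has no test, since a fit that holds it leaves 0 residual degrees of freedom.

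Between the chlorhexidine arrays, 40 of the 46 members were lower in transgenic than in wild-type tissue, with a median of -0.41, where 46.8% of all genes were above 0 and their median was -0.03. By the size rule 0 members were called lower, against 0.964% of genes, and 0 higher, against 0.784%. Mitosis genes had a median of -0.51 and replication genes one of -0.21. Hmmr had the lowest difference, -1.02, on signals too dim for a call, and Kif20a (-0.86) and Mki67 (-0.79) came next. Another Hmmr probe set, Present on both chlorhexidine arrays, had 21.5 in transgenic and 24.6 in wild-type tissue. A further one had 12.1, not Present, in transgenic and 25.7 in wild-type tissue. The 6 members above 0 were Gmnn, Ube2c, Ttk, Aurka, Racgap1 and Cdc45, at 0.05 to 0.44.

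Between the vehicle arrays, 36 of the 46 members were lower in transgenic tissue, with a median of -0.22, where the median of all genes was -0.04. Rrm2, Cdk1, Nusap1 and Birc5 were called lower, 4 of 49 members against 0.502% of genes, and 0 were called higher, against 0.957%. They were 2.51-fold (Rrm2), 2.17-fold (Nusap1), 2.06-fold (Cdk1) and at least 2.04-fold (Birc5) lower. By the second Rrm2 probe set the log2 difference was -0.45, and Rrm2 was not called. With the signals as deposited, unscaled, 0 of the 4 calls remained, and the median of all genes was then 0.37. This comparison rests on the wild-type vehicle array and shares both its arrays with the chlorhexidine comparisons, so the values are not independent of those above.

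An additive fit of treatment and genotype over the 4 arrays (limma, 1 residual degree of freedom) counted as error whatever differed in the response of the genotypes. For treatment, 0 of 46 members passed an adjusted p of 0.05 over 12754 genes, of which 12 did (0.0941%). The adjusted p of the members in the limma fit ran from 0.0581 to 0.806, with Prc1 lowest at a log2 coefficient of 1.67 ± 0.21 (SE). Next came Ect2 (1.67, adjusted p = 0.0638 in limma), Cdk1 (1.70, adjusted p = 0.0672) and Anln (1.93, adjusted p = 0.0699). At an unadjusted p under 0.05, 21 of 46 members were higher with chlorhexidine, against 23.0% of all genes in either direction. With a variance prior that follows signal intensity, 19 of 46 members passed the adjusted limma threshold, against 19.5% of genes, and with genes Present on all 4 arrays 17 of 34 did, against 21.4%. After quantile normalization 0 of 46 passed it, against 0.00% of genes. At an unadjusted p under 0.05 these fits gave 29 of 46 members (31.2% of genes), 23 of 34 (33.2%) and 20 of 46 (22.1%), in the same order. Of these members, 27, 21 and 18 were higher with chlorhexidine and the rest lower. For genotype 0 members passed in the limma fit and 6 had an unadjusted p under 0.05, all 6 lower in transgenic tissue, against 4.96% of genes. These p-values rest on 1 residual degree of freedom, the difference in response between genotypes, and on a variance prior from all genes. They measure no spread within a group or between animals, and the 4 arrays may come from few animals.

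Other genes of the same pathways were counted by function, beside the 3.81% of all genes called higher in transgenic mice and the 8.22% in wild type. Of 32 other kinetochore and mitosis genes, 23 were detected, 3 were called higher in transgenic mice and 6 in wild type, and 0 lower. Their median was 0.68 in transgenic mice and 0.46 in wild type. Unlike that of the mitosis members, the median was larger in transgenic mice, though more of the detected genes had the larger difference in wild type. Cep55, which recruits the abscission machinery, had 38.1 with chlorhexidine and 14.5 with vehicle in transgenic mice, and 60.7 with chlorhexidine and 15.5 with vehicle in wild type. Pbk, a mitotic kinase, was 2.49-fold and 2.99-fold higher, the separase gene Espl1 2.12-fold and 2.06-fold, and Incenp, the scaffold of the passenger complex, 1.72-fold and 2.16-fold. Of 28 measured other replication genes, 1 was called in transgenic mice, the primase subunit Prim1 (2.19-fold, and 1.41-fold in wild type), and 0 in wild type, with medians of 0.18 and 0.29 over the 24 detected, counts near or below the share of all genes. The 12 condensin and cohesin genes had a median of 0.34 in either genotype, and the cohesin genes Rad21 and Stag2 were below 0 in both. Of the called ones, the condensin subunit Ncapg2 was 2.51-fold and 3.03-fold higher, and Smc2 1.42-fold and 2.46-fold.

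Regulators of the G1 to S step lay on both sides of 0. Cdkn1a, which encodes the cyclin-dependent kinase inhibitor p21, had 839 with chlorhexidine and 312 with vehicle in transgenic mice, and 1196 with chlorhexidine and 242 with vehicle in wild type. It was 2.69-fold and 4.93-fold higher, while Cdkn1b, p27, was 1.27-fold lower in transgenic mice and 1.47-fold higher in wild type. Cdkn2b, p15, was 3.46-fold higher in wild type and at least 1.18-fold in transgenic mice. Cdk6, a partner of D-type cyclins, was 2.76-fold higher in transgenic mice and 4.13-fold in wild type, against 1.42-fold and 1.51-fold for Cdk4 and 1.33-fold and 1.23-fold for Cdk2. The phosphatase gene Cdc25b, which activates Cdk1, was 3.25-fold and 1.44-fold higher. Rb1 had log2 differences of 0.01 in transgenic mice and 0.43 in wild type.

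Of 9 activators of mitotic genes 7 were detected and 0 called in either genotype, with medians of -0.26 in transgenic mice and 0.33 in wild type. Foxm1, the forkhead activator of G2 genes, and E2f1, an activating E2F factor, were Present on no array. Mybl2, the B-Myb factor, Present on all 4 arrays, had 11.6 with chlorhexidine and 13.9 with vehicle in transgenic mice, and 16.2 with chlorhexidine and 8.43 with vehicle in wild type. E2f2 had 68.2 with chlorhexidine in transgenic mice and 11.1 with vehicle, where it was not called Present, and 21.8 with chlorhexidine and 30.6 with vehicle in wild type. The repressor E2f6 had log2 differences of -0.59 in transgenic mice and -1.12 in wild type, and the E2F partner Tfdp2 of -0.35 and -1.09, and both were called lower in wild type.

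**Figure D5:**
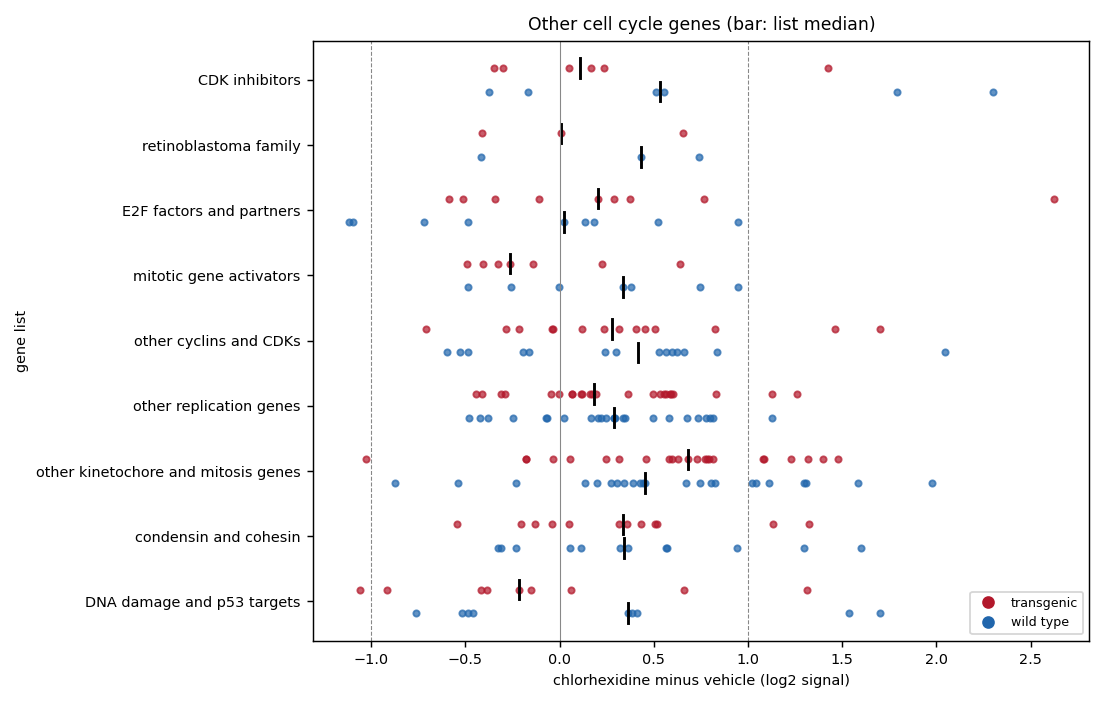
Chlorhexidine minus vehicle (log2 signal) for detected genes of 9 other cell cycle lists (points: genes; black bars: list medians; red: transgenic, drawn above; blue: wild type), with dashed lines at 2-fold. The other kinetochore and mitosis genes have medians of 0.68 and 0.46, and single genes such as Cdkn1a and Cdk6 lie far right of their lists.

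Markers of other cell types differed beside these genes, and their part in the results was not tested. Of all genes, 3.81% were called higher with chlorhexidine and 1.40% lower in transgenic mice, and 8.22% and 4.93% in wild type. The 8 leukocyte and macrophage markers had a summed signal of 7964 with chlorhexidine and 5524 with vehicle in transgenic mice, and of 8650 with chlorhexidine and 5589 with vehicle in wild type, and 3 of 8 were called higher in each genotype. The 8 fibroblast markers summed to 25360.2 with chlorhexidine and 16056 with vehicle in transgenic mice, and to 30034 with chlorhexidine and 15637 with vehicle in wild type. The 8 satellite cell and myoblast markers summed to 1599.7 and 623 in transgenic mice (chlorhexidine and vehicle), and to 2849 and 736 in wild type. Of these, the differentiation genes Myog, Myh3, Myh8 and Chrng were called higher in both genotypes, and the others in neither. In transgenic mice and wild type, Myod1 differed by 0.00 and -0.01, Myf5 by 0.03 and 0.24, and Cdh15 by 0.13 and -0.49. Pax7, Present on the wild-type chlorhexidine array only, differed by 0.79 and 0.06. B cell markers were lower, with 4 of 7 called in transgenic mice and 5 of 7 in wild type. Their sum was 245 with chlorhexidine and 1657 with vehicle in transgenic mice, and 173 with chlorhexidine and 3639 with vehicle in wild type, and Pax5 and Tnfrsf17 were Present on no array. The 8 T and NK cell markers summed to 153 and 213 in transgenic mice (chlorhexidine and vehicle), and to 266 and 307 in wild type, and Cd4 was Present on no array. The 6 measured erythroid markers summed to 1772 with chlorhexidine and 609 with vehicle in transgenic mice, and to 686.1 with chlorhexidine and 718 with vehicle in wild type. Alas2 and Slc4a1 were called higher in transgenic mice, while Tfrc differed by -0.30 in transgenic mice and -0.22 in wild type. Hba-a1, Epb42 and Klf1 were Present on no array. The 8 endothelial markers summed to 1014 and 1005 in transgenic mice (chlorhexidine and vehicle), and to 1213 and 863 in wild type. The 6 measured adipocyte markers summed to 8341 and 11462 in transgenic mice, and to 6197 and 10993 in wild type, in the same order. As to the tissue itself, all 8 mesothelial markers were detected, with sums of 594 and 536 in transgenic mice and 402 and 689 in wild type, and so were all 8 skeletal muscle markers, with sums of 59799.6 and 59227 in transgenic mice and 58646 and 71628 in wild type.

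Promoter letters and size calls were set side by side. Of the 21 mitosis members with the CHR letters, 5 were called higher with chlorhexidine in transgenic mice and 8 in wild type, with medians of 0.97 and 1.04 over the 19 detected. Of the 6 measured members of that class without them, 2 were called in transgenic mice and 1 in wild type, with medians of 0.84 and 0.79. By the same rule 3.81% of all genes were called higher in transgenic mice and 8.22% in wild type. Cdc45 and Mcm2, the replication members with the letters, had medians of -0.31 and -0.28. These counts are small and carry no test.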

How the data were processed

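Peritoneal total RNA was made into biotin-labelled cRNA, per the labels' protocols, and hybridised to 1 array per group. Per the file headers, the authors deposited a linear signal intensity for each probe set. Beside it stands their detection p-value with its call (Present, Marginal or Absent), as deposited. The algorithm they ran, with its scaling target, is not given in the sources used here. A table of the whole series held the same intensity values as the array files, with 0 values differing as deposited.

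Arrays were multiplied to a common mean after trimming 2% at each end (factors of 1.01 and 0.877 for transgenic chlorhexidine and vehicle, and 0.984 and 1.17 for wild type), and floored at 0.1 before taking log2. Of 45037 probe sets other than 64 controls, 34945 had 1 gene symbol in the platform annotation, 932 several and 9160 none. Entrez identifiers gave the current RefSeq symbol (GRCm38.p6). Calls followed the rule of size given above, and limma 3.58.1 in R 4.3.3 fitted the additive model with Benjamini-Hochberg adjustment over all genes Present on at least 1 array. Both were tested on simulated data of bright genes alone, with little noise, no signal minimum and equal differences in both genotypes. Dim genes and unequal responses were not simulated. Promoters were RefSeq's, the first listed for each gene, and motifs were searched on both strands.

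The members, roles and lists were chosen with earlier results of these data known. All 50 members are named or counted. Other genes are named when called in either genotype, at most 4 per list, with a short set including Foxm1, E2f1, Rb1 and Cdkn1a. Single cell type markers other than those Present on no array were named after their values were seen. Alternatives were 4 scalings, a pseudocount of 32, no dim filter, Present calls on all 4 arrays, other choices of probe set, thresholds of 1.5-fold and 3-fold, and the other genotype's vehicle array.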

Additional observations from a re-analysis of the deposited data

Results flagged for a closer look

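For 6 detected members the chlorhexidine difference had opposite signs in the 2 genotypes, each represented by 1 pair of arrays, and the difference between genotypes was not tested. The values are transgenic minus wild type in log2 units. Ttk differed by 3.16, on a transgenic vehicle signal of 2.28. Kif2c, a microtubule-depolymerising kinesin, differed by -1.32, with 17.0 with chlorhexidine and 18.9 with vehicle in transgenic mice and 28.8 with chlorhexidine and 12.9 with vehicle in wild type. Another Kif2c probe set, Present on both chlorhexidine arrays and on neither vehicle array, had 21.2 with chlorhexidine and 9.21 with vehicle in transgenic mice, and 22.7 with chlorhexidine and 10.2 with vehicle in wild type. Cenpe differed by -0.99, Cdc6 by -0.59, Cdc45 by 0.43 and Tpx2 by -0.42.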

How the results depend on the processing

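No paired analysis was possible because each group had 1 array, and no replicate could be left out. Of the called member values, 3 changed sign under an alternative. They were Rrm2 in transgenic mice against the wild-type vehicle array (-0.11), and Nusap1 when probe sets were averaged, at -2.71 in transgenic mice and 1.36 between the vehicle arrays. Averaging brings in a second Nusap1 probe set that was Present on no array. Members called higher in transgenic mice (9) numbered 2 with a pseudocount of 32, 14 without the filter on dim probe sets, 5 without probe sets ending in _x_at or _s_at, 16 at 1.5-fold, 2 at 3-fold and 3 against the wild-type vehicle array, and 2 were lower at 1.5-fold. In wild type (11) they numbered 2 with the pseudocount, 18 at 1.5-fold, 4 at 3-fold and 19 against the transgenic vehicle array. The share of all genes called higher moved in the same direction under the pseudocount and the other thresholds. In transgenic mice it was 1.975% with the pseudocount, 9.77% at 1.5-fold, 1.16% at 3-fold and 10.97% when dim probe sets were kept. In wild type it was 4.59% with the pseudocount, 16.59% at 1.5-fold and 3.32% at 3-fold. Between the chlorhexidine arrays, 1 member was lower without the filter and 6 at 1.5-fold, where 8.047% and 4.305% of all genes were lower. Between the vehicle arrays (4) the count was 0 with deposited scaling, with the pseudocount and at 3-fold, and 8 at 1.5-fold. At 1.5-fold 3.55% of all genes were lower there. Member medians relative to all genes ran from 0.23 to 0.64 in transgenic mice and from 0.40 to 1.10 in wild type, with both 0.23 and 1.10 against the other vehicle array. They ran from -0.39 to -0.23 between the chlorhexidine arrays and from -0.29 to -0.08 between the vehicle arrays. Under quantile normalization, median centring and loess alike, Mcm5 lost its call in transgenic mice, and Uhrf1, Ccnb2 and Ube2c theirs in wild type. The mitosis median was above the replication median under the alternatives that can move the gap, which thresholds, median centring and deposited scaling cannot, and was least above it with the pseudocount, at 0.078 in transgenic mice and 0.29 in wild type. For wild type, all genes together had a median of -0.11 under quantile normalization, -0.18 after median centring and 0.25 with deposited scaling. Members past the adjusted limma threshold for treatment numbered 19 with the intensity-trended prior, 17 with genes Present on all 4 arrays and 0 after quantile normalization. Thresholds, the dim filter and the pseudocount alter counts by construction, and the cause of the other changes was not tested. Most kinetochore members are dim, and their signal over background limits them.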

Other observations

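Genes of DNA damage and p53 signalling did not move as a block with chlorhexidine. Of 10 measured genes, 1 was called higher and 1 lower in transgenic mice and 2 higher in wild type. Of all genes, 3.81% were called higher and 1.40% lower in transgenic mice, and 8.22% higher in wild type. The medians over the 9 detected genes were -0.21 in transgenic mice and 0.36 in wild type. Gadd45a, a growth arrest gene, had 457 with chlorhexidine and 184 with vehicle in transgenic mice, and 849 with chlorhexidine and 261 with vehicle in wild type, so both chlorhexidine arrays lay above both vehicle arrays. Btg2, an antiproliferative immediate early gene, had 372 with chlorhexidine and 776 with vehicle in transgenic mice, and 739 with chlorhexidine and 255 with vehicle in wild type, so its vehicle arrays were the highest and the lowest of the 4.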
